A study of Mus musculus with 16 samples.

Results

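The unfolded protein response (UPR) was followed through 10 of its genes, Hspa5, Ddit3, Atf4, Xbp1, Herpud1, Dnajb9, Sdf2l1, Pdia4, Trib3 and Chac1, out of the 24984 genes in the count tables. They were listed by name as known endoplasmic reticulum (ER) stress genes. Hspa5, Trib3 and Chac1 lie on chromosome 2, Pdia4 on 6, Herpud1 on 8, Ddit3 on 10, Xbp1 on 11, Dnajb9 on 12, Atf4 on 15 and Sdf2l1 on 16, and all 10 passed the filter on low counts in both tissues. The data were RNA-seq read counts of kidney and liver from old wild-type C57BL/6 female mice, labelled 24 months of age, with 16 libraries in all. Each tissue had 4 libraries from mice given a vector with a short hairpin RNA against Fos (shFos) and 4 from mice given the same kind of vector with a non-targeting hairpin (NT). Both arms had received AAV8, an adeno-associated virus that mainly infects liver, by intravenous injection 3 months before collection, so no group was free of virus or hairpin. By the study's methods the mice were 24 months old at injection, so the label gives their age at injection and not at collection. Fos encodes a subunit of AP-1, a dimeric transcription factor, and the series asked what lowering it does in old organs. The labels do not say that the replicates of a group were separate mice, so p-values measure the spread between these libraries.

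The UPR is the reaction of a cell to unfolded protein in the lumen of the ER. Its sensors Ire1 (gene Ern1), Perk (Eif2ak3) and Atf6 act through splicing of the Xbp1 mRNA, through phosphorylation of the translation factor eIF2alpha with preferred translation of Atf4, and through release of a transcription factor from the ER membrane. Xbp1 and Atf6 raise chaperones, folding enzymes and degradation factors, whereas Atf4 raises the proapoptotic factor Ddit3 (CHOP), the pseudokinase Trib3 and the glutathione-degrading enzyme Chac1. Liver and kidney tubule are both rich in secreted or membrane protein, and in the liver Xbp1 is also a known regulator of lipid synthesis.

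Fos mRNA was checked first, since it was the target of the hairpin. In kidney, its level was 6.71, 5.26, 4.23 and 5.29 CPM (counts of a gene normalised to the size of its library) in NT replicates 1 to 4 and 2.57, 4.12, 3.93 and 2.30 CPM in shFos, so that the groups did not overlap (log2 fold change -0.73 ± 0.25 SE, edgeR adjusted p = 0.0955, exact two-sided permutation p = 0.0286, the smallest that 4 against 4 allows). DESeq2 called kidney Fos lower (-0.74, adjusted p = 0.0421), where it called 7.92% of all genes tested lower. Of all genes tested in kidney, 8.04% had shFos wholly below NT. In liver, Fos was 1.12, 2.37, 3.70 and 2.86 CPM in NT and 1.63, 1.5, 2.76 and 1.38 CPM in shFos. There the groups overlapped (log2 fold change -0.47 ± 0.38, adjusted p = 0.778 by edgeR and 0.818 by DESeq2). Depth was 14194543 to 15534665 counted reads in the kidney libraries and 16652150 to 18300277 in the liver libraries. The tissue labels held: 7 kidney markers summed to between 11220 and 42560 CPM in kidney and to 5.11 CPM or less in liver, whereas 7 liver markers summed to at least 48920 CPM in liver and to at most 1487 CPM in kidney. The results below rest on a few libraries: NT replicate 4 of each tissue differed from its group mates more than they differed from each other, and shFos replicate 1 of kidney lay inside the NT range for 9 of the 10 UPR genes, against 3 or 4 genes for the other kidney shFos libraries. Fos itself was low in that shFos library (2.57 CPM).

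The promoters of the UPR genes were searched for motifs, among them elements by which the response is known to reach its genes. In the RefSeq promoters of mouse build GRCm38.p6 (250 bases before the annotated start to 50 bases after it), 6 motifs were searched on both strands. The CCAAT box alone, which is also the left part of the ERSE, was found in 8 of the 10 genes (all but Xbp1 and Trib3) and in 37.4% of all promoters, and it is not marked below. The ER stress element ERSE, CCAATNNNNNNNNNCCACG, is bound by Atf6 and Xbp1 and was found in Hspa5 alone of the 10 genes, against 0.119% of all 32851 promoters. ERSE-II, ATTGGNCCACG, was found in Herpud1 alone and in 0.0365% of all promoters. TGACGTG, the core of the UPR element (UPRE), was found in Hspa5 and in 2.01% of all promoters. TTGCATCA, a core of the amino acid response element (CARE) bound by Atf4, was found in Herpud1 and Chac1 and in 0.895% of all promoters. The AP-1 site TGANTCA was found in Hspa5 and Ddit3 and in 7.81% of all promoters. None of the matches of the 5 longer motifs overlapped another, and a match is a description of the letters and not of binding. The search took exact matches in these windows alone, so a missing match does not show that an element is absent. The 4 promoters with a match to one of these 5 are shown because they hold all such matches among the 10 genes, the AP-1 sites included, in capitals within the lower-case sequence, 5′ to 3′ on the strand of the gene. Hspa5 lies at chr2:34771840-34772139 (plus strand) and holds, in order, the AP-1 site, the UPRE core and the ERSE. Ddit3 lies at chr10:127290543-127290842 (plus strand) and holds the AP-1 site. Herpud1 lies at chr8:94386179-94386478 (plus strand) and holds the CARE core followed by ERSE-II. Chac1 lies at chr2:119350992-119351291 (plus strand) and holds the CARE core.
Hspa5: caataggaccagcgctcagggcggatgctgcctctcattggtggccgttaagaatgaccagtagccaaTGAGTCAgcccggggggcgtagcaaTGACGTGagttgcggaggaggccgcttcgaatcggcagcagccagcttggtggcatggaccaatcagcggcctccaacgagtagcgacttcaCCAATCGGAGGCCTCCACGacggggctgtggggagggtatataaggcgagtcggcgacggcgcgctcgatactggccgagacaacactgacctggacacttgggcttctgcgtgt
Ddit3: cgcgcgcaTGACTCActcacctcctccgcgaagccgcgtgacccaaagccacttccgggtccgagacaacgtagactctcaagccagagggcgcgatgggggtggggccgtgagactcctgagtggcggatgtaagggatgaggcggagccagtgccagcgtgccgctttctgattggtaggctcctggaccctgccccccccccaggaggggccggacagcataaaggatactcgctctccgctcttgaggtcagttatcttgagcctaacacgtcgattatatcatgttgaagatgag
Herpud1: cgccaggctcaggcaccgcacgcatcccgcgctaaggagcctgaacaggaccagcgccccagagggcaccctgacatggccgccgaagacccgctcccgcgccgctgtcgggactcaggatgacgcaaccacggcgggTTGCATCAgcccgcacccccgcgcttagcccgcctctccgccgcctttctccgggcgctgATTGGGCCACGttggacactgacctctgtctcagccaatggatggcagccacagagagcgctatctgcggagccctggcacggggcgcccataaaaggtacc
Chac1: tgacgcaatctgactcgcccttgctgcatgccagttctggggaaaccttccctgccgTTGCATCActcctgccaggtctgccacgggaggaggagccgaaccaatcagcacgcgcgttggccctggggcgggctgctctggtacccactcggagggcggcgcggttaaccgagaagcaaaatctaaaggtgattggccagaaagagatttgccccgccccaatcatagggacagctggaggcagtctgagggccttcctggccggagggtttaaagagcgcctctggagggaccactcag

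**Figure D1:**
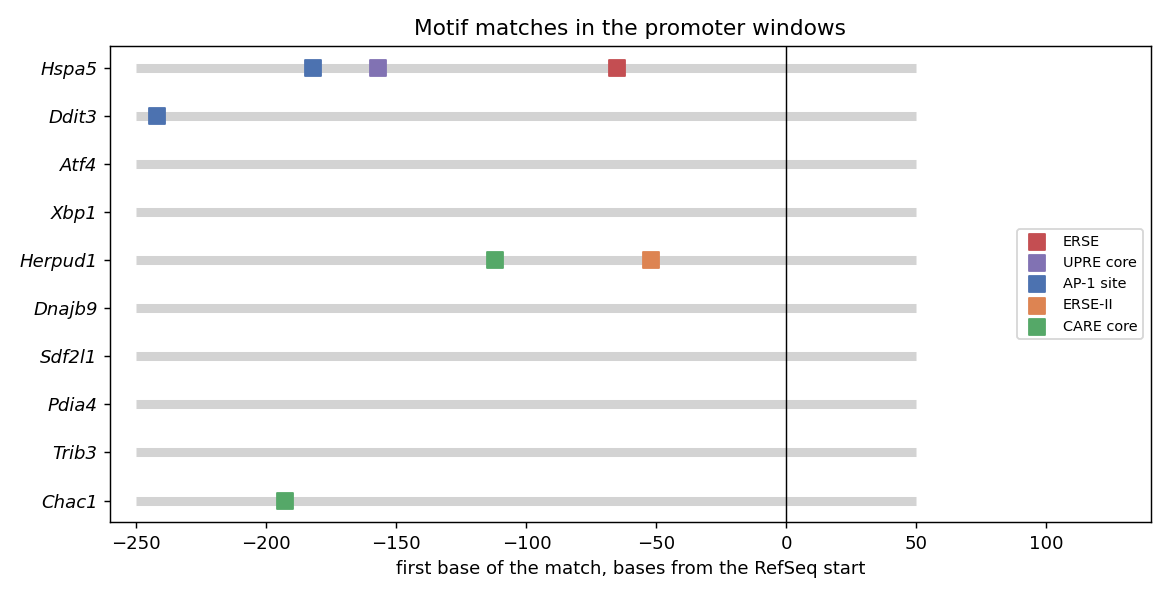
Each grey bar is the promoter window of a UPR gene in bases from its RefSeq start (horizontal axis), and each square is the first base of a motif match, coloured by motif (CCAAT boxes are not drawn). Such matches stood in 4 of the 10 windows, with the ERSE of Hspa5 at -65, the AP-1 sites at -182 in Hspa5 and -242 in Ddit3, and the CARE cores at -112 in Herpud1 and -193 in Chac1.

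How much of each UPR mRNA the old NT organs held was taken from levels per length, as CPM per kilobase of the longest coding transcript on a scale normalised over all 16 libraries. Hspa5, the ER chaperone BiP, was the highest in both tissues, at 98.8 ± 30.9 (SD, n = 4) in kidney and 349 ± 96.8 in liver. In kidney, Herpud1, a membrane factor of ER-associated degradation, followed at 82.4 ± 26.6, Xbp1 at 75.6 ± 16.8 and Atf4 at 56.1 ± 5.52, and the ranges of neighbours in this order overlapped. Pdia4, a protein disulfide isomerase, stood apart below them at 32.0 ± 7.65, and the BiP cofactors Dnajb9 (17.9 ± 2.95) and Sdf2l1 (13.8 ± 1.72) and Ddit3 (13 ± 1.91) came next. Chac1 (1.46 ± 0.458) and Trib3 (0.757 ± 0.266) were the lowest. The ranges of Dnajb9, Sdf2l1 and Ddit3 overlapped from each to the next, as did those of Chac1 and Trib3. In liver, the upper ranks were Xbp1 (233 ± 89.0), Pdia4 (155 ± 23.8), Herpud1 (155 ± 55.2) and Atf4 (116 ± 12.8), again with ranges that overlapped between neighbours. Sdf2l1 (61.9 ± 15.4) and Dnajb9 (48.2 ± 19.6) followed, and Ddit3 (11 ± 0.793), Chac1 (3.84 ± 3.91) and Trib3 (3.36 ± 2.24) closed the order. Pdia4 ranked 5 in kidney and 3 in liver and Herpud1 2 and 4, but the liver range of Herpud1 (94.8 to 220) contained that of Pdia4 (123 to 174).

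Between the tissues, 9 of the 10 UPR genes were lower in kidney than in liver among the NT libraries at an edgeR adjusted p under 0.05, where 30.2% of all genes tested were lower and 34.4% higher in kidney. The difference, kidney minus liver on the log2 scale, was -2.28 ± 0.18 (SE) for Pdia4, -2.17 ± 0.20 for Sdf2l1, -2.15 ± 0.50 for Trib3 and -1.82 ± 0.27 for Hspa5. It was -1.62 ± 0.23 for Xbp1, -1.43 ± 0.27 for Dnajb9, -1.40 ± 0.54 for Chac1, -1.04 ± 0.12 for Atf4 and -0.91 ± 0.26 for Herpud1. Ddit3 did not pass the test (0.24 ± 0.27, edgeR adjusted p = 0.440). The size of these differences rested on the scaling. The TMM factors, which correct for RNA composition, were 1.32 to 1.48 in kidney and 0.626 to 0.783 in liver, where the 20 most abundant genes took 27.5% of the NT counts against 11.6% in kidney. With library totals in place of TMM, a setting chosen after seeing the data, the median of all genes moved from 0.05 to 1.10. On that scale 5 UPR genes were still lower in kidney (Pdia4 -1.23 ± 0.18, Sdf2l1 -1.12 ± 0.20, Trib3 -1.13 ± 0.51, Hspa5 -0.76 ± 0.25, Xbp1 -0.58 ± 0.22), where 9.79% of all genes tested were lower. Atf4 (0.01 ± 0.12), Herpud1 (0.14 ± 0.25), Dnajb9 (-0.37 ± 0.25) and Chac1 (-0.38 ± 0.55) no longer passed, and Ddit3 was higher in kidney (1.29 ± 0.28), where 75.1% of all genes tested were. Relative to the median of all genes, Atf4 and Herpud1 lay about 1 log2 unit lower in kidney on either scale. The Chac1 call was lost without liver NT replicate 4 (-0.37 ± 0.40, edgeR adjusted p = 0.427) and with the 8 NT libraries alone, without a replicate block (-1.40, edgeR adjusted p = 0.0725) or with it (-1.05, 0.0779). It was also lost under upper-quartile scaling (-1.26, edgeR adjusted p = 0.0551). Without kidney NT replicate 1, 2 or 3 its edgeR adjusted p was 0.0594, 0.0894 and 0.0514. The other 8 called genes kept their calls without liver NT replicate 4 and in the blocked fit of the NT libraries.

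**Figure D2:**
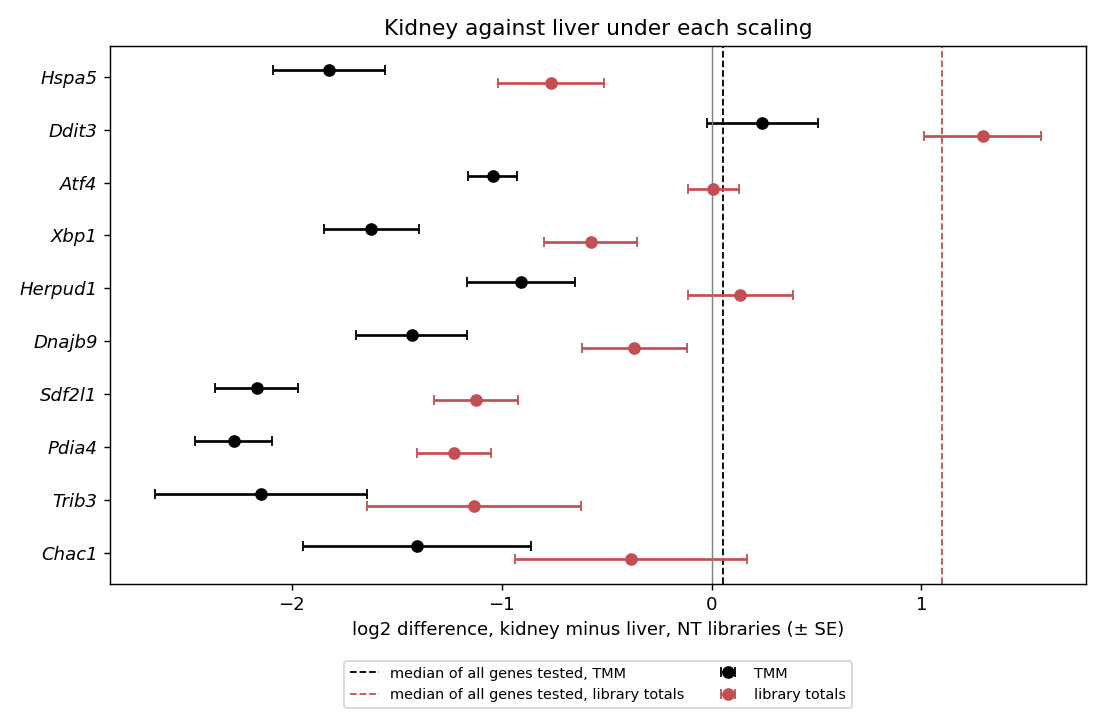
Points show the log2 difference of each UPR gene, kidney minus liver in NT libraries, with SE bars, under TMM (black) and library totals (red). Dashed lines mark the median of all genes tested on each scale (0.05 and 1.10), and every gene but Ddit3 sits left of the dashed line of its colour.

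In kidney, no UPR gene passed the test between shFos and NT (0 of 10 by edgeR and by DESeq2, adjusted p under 0.05). By edgeR 0% of the 14892 genes tested passed (4747 had an unadjusted p under 0.05), and by DESeq2 18.3% did. Of the fitted values, 5 were positive (the chaperone and degradation genes Hspa5, Dnajb9, Sdf2l1, Pdia4 and Herpud1) and 5 negative (Xbp1, Atf4, Ddit3, Trib3 and Chac1). The median over the 10 was -0.02 against 0.00 over all genes. At an unadjusted p under 0.05, 1 of the 10 was higher in shFos (Sdf2l1) and 1 lower (Ddit3), where 17.1% and 14.8% of all genes tested were. No UPR gene had kidney groups wholly apart, as 9.16% of all genes did with shFos above NT and 8.04% with shFos below.

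Of the kidney chaperone arm, Hspa5 stood at 729, 438, 537 and 349 CPM in NT replicates 1 to 4 and at 507, 844, 656 and 720 CPM in shFos. NT replicate 1 lay above 3 of the 4 shFos libraries, so that the groups overlapped (log2 fold change 0.41 ± 0.24 SE, edgeR adjusted p = 0.263). Sdf2l1, a component of BiP chaperone complexes, had 25.5, 19.5, 21.1 and 20.1 CPM in NT and 23.5, 33.6, 27.0 and 26.7 CPM in shFos. A single pair of libraries overlapped, shFos replicate 1 lying below NT replicate 1 (0.36 ± 0.13, edgeR adjusted p = 0.108). Dnajb9, the J-domain cofactor ERdj4, had 75.7, 52.6, 57.1 and 63.1 CPM in NT and 55.4, 94.7, 86.8 and 84.2 CPM in shFos. Again shFos replicate 1 alone lay within the NT range (0.37 ± 0.17, edgeR adjusted p = 0.180). Pdia4 ranged from 82.9 to 135 CPM in NT and from 104 to 148 CPM in shFos (0.24 ± 0.19), and Herpud1 from 184 to 329 and from 192 to 324 CPM (0.17 ± 0.22). These genes varied together over the 8 kidney libraries: the Pearson r of log2 CPM with Hspa5 was 0.90 for Pdia4, 0.90 for Sdf2l1 and 0.80 for Dnajb9 but -0.03 for Herpud1, a description over libraries that share a normalisation.

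Of the kidney Atf4 arm, Ddit3 stood at 18.7, 18.5, 13.8 and 14.6 CPM in NT and at 16.5, 9.84, 8.80 and 10.2 CPM in shFos. Its groups overlapped through shFos replicate 1 alone (log2 fold change -0.53 ± 0.21 SE, edgeR adjusted p = 0.124). Ddit3 shares its place in GENCODE M21 with the antisense gene Mars, and the counts ignored strand, so reads of the overlap could not be assigned by strand. Atf4 had 146, 140, 118 and 143 CPM in NT and 137, 112, 108 and 113 CPM in shFos (-0.22 ± 0.11, edgeR adjusted p = 0.197). Atf4 and Ddit3 had an r of 0.92 over the 8 libraries. Xbp1 ranged from 175 to 272 CPM in NT and from 171 to 229 CPM in shFos (-0.22 ± 0.16), and gene-level counts cannot tell its spliced from its unspliced form. Trib3 (1.55 to 3.03 CPM in NT, 1.15 to 2.59 in shFos) and Chac1 (1.89 to 4.19 and 0.858 to 3.34) rested on 12 to 65 reads a library and overlapped (-0.40 ± 0.35 and -0.38 ± 0.41).

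The kidney calls turned on 1 library. Without shFos replicate 1, edgeR called 3 of the 10 UPR genes: Ddit3 lower (-0.81 ± 0.15, adjusted p = 0.00707), Atf4 lower (-0.34 ± 0.09, adjusted p = 0.0301) and Dnajb9 higher (0.47 ± 0.13, adjusted p = 0.0297). In that setting 15% of all genes tested were called lower and 12.5% higher, so these 3 calls came with 4126 calls over the whole table. No other library left out in turn gave a call among the 10 in kidney, and no gene of the 10 turned its direction in kidney under any alternative run. A correction for GC content moved several values by more than 1.5 times: Dnajb9 to 0.17 ± 0.14, Pdia4 to 0.16 ± 0.18, Atf4 to -0.13 ± 0.10, Trib3 to -0.20 ± 0.35 and Chac1 to -0.22 ± 0.40. These moved towards 0, whereas Sdf2l1 moved away from it, to 0.53 ± 0.14 (edgeR adjusted p = 0.0841), as did Herpud1, to 0.21 ± 0.23.

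**Figure D3:**
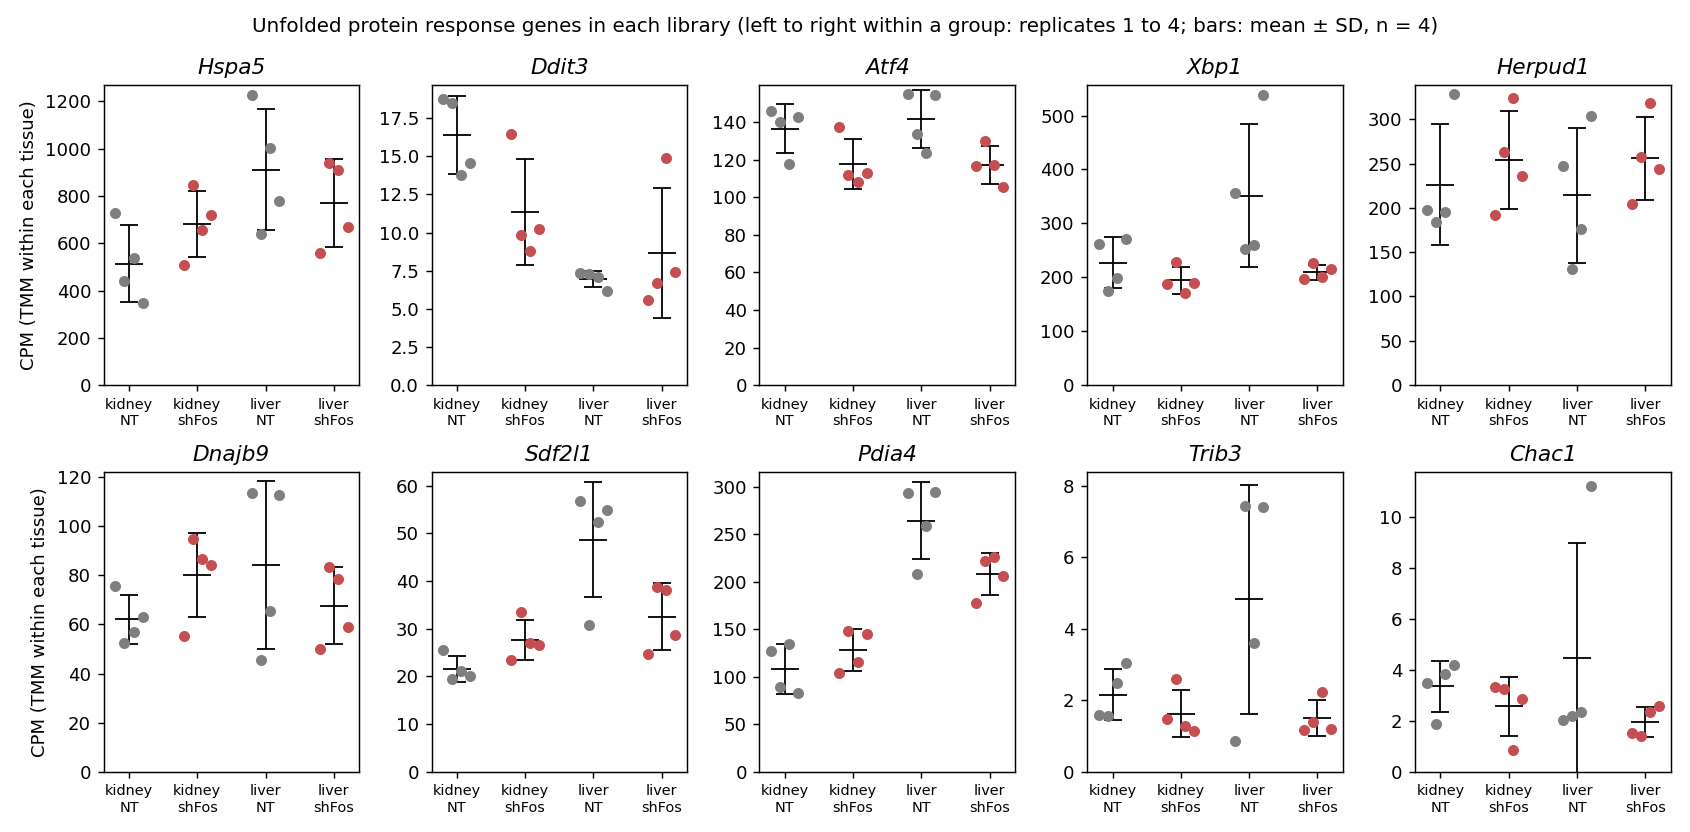
Each panel shows a UPR gene in CPM (vertical axis from 0, TMM within each tissue), with each library as a point (grey NT, red shFos, replicates 1 to 4 from left to right) and the mean ± SD (n = 4) as bars. Kidney shFos replicate 1 lies nearest the NT points for Ddit3, Atf4 and Dnajb9, and liver NT replicate 4 is the high point of Xbp1 (538 CPM) and Chac1 (11.2 CPM), where the lower SD bar runs below the axis.

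In liver, no UPR gene passed the test either (0 of 10 by edgeR and by DESeq2). By edgeR 0% of the 13144 genes tested passed (886 had an unadjusted p under 0.05), and by DESeq2 0.289% did. In contrast to kidney, 8 of the 10 fitted values were negative, with a median of -0.33 against -0.01 over all genes. At an unadjusted p under 0.05, 3 of the 10 were lower in shFos (Xbp1, Sdf2l1, Trib3) and 0 were higher, where 3.16% and 3.58% of all genes tested were. Lower RNA per cell and fewer cells with the RNA cannot be told apart in bulk tissue, here or in kidney.

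Xbp1 was the only UPR gene whose liver groups did not overlap, at 356, 252, 260 and 538 CPM in NT replicates 1 to 4 and at 196, 226, 200 and 216 CPM in shFos. Its log2 fold change was -0.75 ± 0.24 SE (edgeR adjusted p = 0.714), and the exact two-sided permutation p was 0.0286, the smallest that 4 against 4 allows, among 20 such tests of the 10 genes in both tissues. Of all genes tested in liver, 1.52% had shFos wholly below NT and 2.79% wholly above. NT replicate 4 carried much of the size: without it the value was -0.48 ± 0.14. Trib3 had 0.858, 7.44, 3.59 and 7.41 CPM in NT and 1.18, 1.39, 2.23 and 1.20 CPM in shFos. Replicates 2, 3 and 4 of NT lay above every shFos library and replicate 1 below them all, on 13 to 140 reads a library (-1.69 ± 0.58, edgeR adjusted p = 0.714, exact permutation p = 0.143). Chac1 had 2.05, 2.19, 2.34 and 11.2 CPM in NT and 1.52, 1.39, 2.35 and 2.57 CPM in shFos. Its value of -1.19 ± 0.59 came from NT replicate 4, without which it was -0.18 ± 0.28.

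The 4 chaperone genes had negative values in liver and positive ones in kidney. Sdf2l1 had 56.8, 30.7, 52.4 and 54.9 CPM in NT and 24.7, 38.7, 38.0 and 28.7 CPM in shFos, where NT replicate 2 lay among the shFos libraries (-0.58 ± 0.22 SE, edgeR adjusted p = 0.715). Pdia4 had 294, 208, 259 and 295 CPM in NT and 178, 222, 226 and 206 CPM in shFos, overlapping through the same NT library (-0.34 ± 0.15, edgeR adjusted p = 0.734). Hspa5 ranged widely in both groups, from 641 to 1226 CPM in NT and from 560 to 939 CPM in shFos (-0.25 ± 0.26). Dnajb9 ranged from 45.5 to 114 and from 50 to 83.4 CPM (-0.32 ± 0.30). Without NT replicate 1, Hspa5 was -0.08 ± 0.26 and Dnajb9 -0.14 ± 0.31, and without NT replicate 4 Dnajb9 was -0.16 ± 0.32. Atf4 had 155, 134, 124 and 155 CPM in NT and 117, 130, 117 and 105 CPM in shFos (-0.27 ± 0.12, edgeR adjusted p = 0.734). Over the 8 liver libraries Sdf2l1 and Pdia4 had an r of 0.97.

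Ddit3 and Herpud1 were the liver genes with positive values. Ddit3 lay between 6.19 and 7.32 CPM in NT and at 5.56, 6.72, 14.9 and 7.42 CPM in shFos. Its value of 0.31 ± 0.29 SE came from shFos replicate 3 and was -0.09 without that library. Herpud1 ranged from 131 to 303 CPM in NT and from 205 to 318 CPM in shFos (0.26 ± 0.26). In kidney Herpud1 had a positive value as well (0.17 ± 0.22). Without NT replicate 4 of the tissue it was 0.40 ± 0.16 in kidney (edgeR adjusted p = 0.137) and 0.46 ± 0.23 in liver (edgeR adjusted p = 0.789). Over all alternatives Herpud1 ranged from 0.03 to 0.40 in kidney and from 0.07 to 0.46 in liver.

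**Figure D4:**
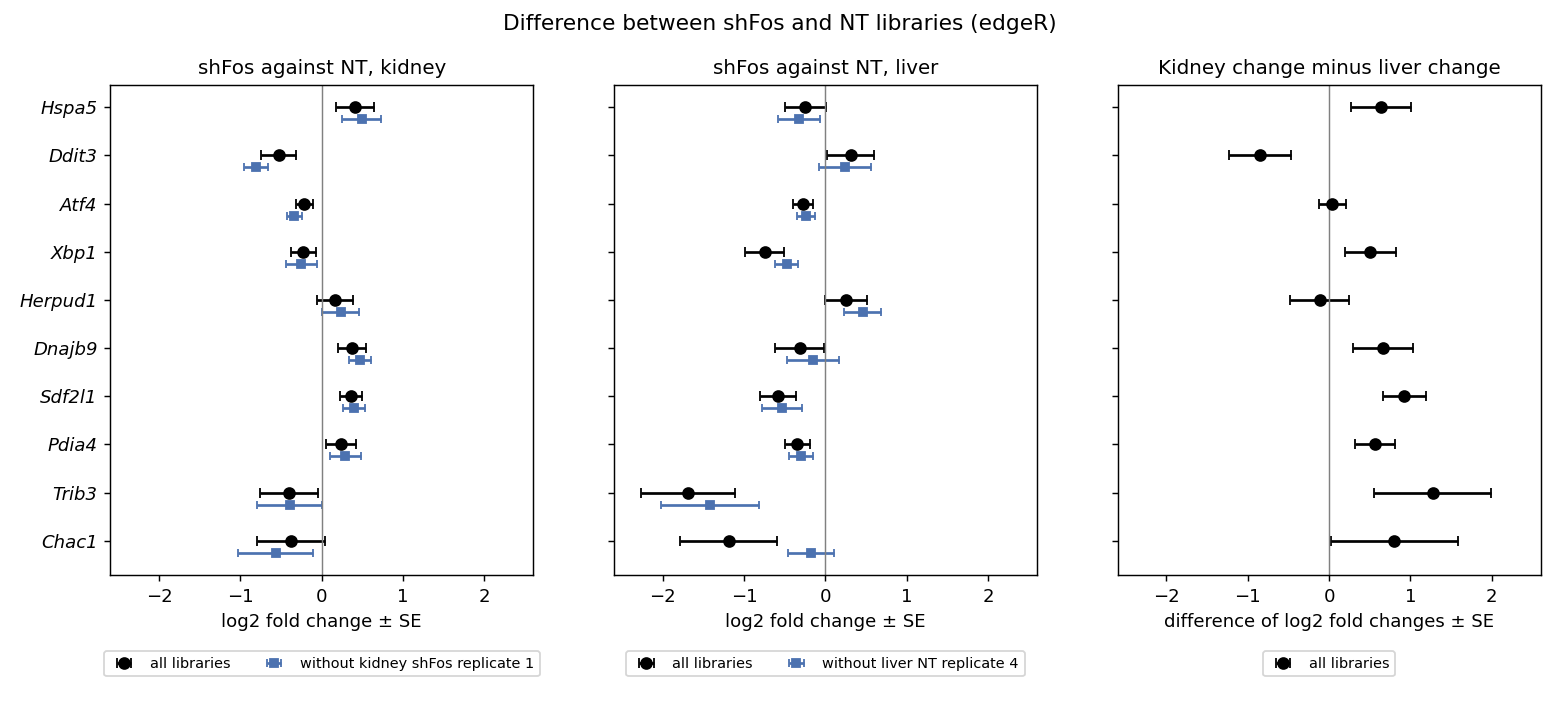
Points give the log2 fold change of each UPR gene, shFos against NT, in kidney (left) and liver (middle) with SE bars, and the difference of the 2 changes (right). Blue squares leave out kidney shFos replicate 1 or liver NT replicate 4. Hspa5, Dnajb9, Sdf2l1 and Pdia4 lie right of 0 in kidney and left of it in liver, and liver Chac1 moves from -1.19 to -0.18 without the NT library.

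Whether the change differed between the tissues was tested directly, as the kidney change minus the liver change over all 16 libraries. This fit took the libraries as independent, although same-numbered NT kidneys and livers deviated together (correlation 0.12 to 0.40 over genes). By edgeR 0 of 10 UPR genes and 0% of the 15421 genes tested passed (2482 had an unadjusted p under 0.05). Sdf2l1 came nearest, with a difference of 0.93 ± 0.27 SE (adjusted p = 0.186 by edgeR). It was called by DESeq2 (0.95, adjusted p = 0.0490), which called 2.21% of all genes tested, and by edgeR without kidney shFos replicate 1 (1.03 ± 0.28, adjusted p = 0.0409), where 7.99% of all genes tested were called. DESeq2 gave Trib3 and Chac1 no adjusted p here, so it could not call them. At an unadjusted p under 0.05, Sdf2l1 and Pdia4 (0.57 ± 0.25) were on the side of a higher kidney change and Ddit3 (-0.85 ± 0.38) on the other, where 8.25% and 7.84% of all genes tested were. The Ddit3 difference was -0.46 ± 0.29 without liver shFos replicate 3, and without liver NT replicate 4, 1 UPR gene was on the first side and 0 on the other at an unadjusted p under 0.05. The differences of Hspa5 (0.64 ± 0.37), Dnajb9 (0.67 ± 0.37), Xbp1 (0.51 ± 0.31), Trib3 (1.28 ± 0.72) and Chac1 (0.80 ± 0.78) were positive within wide errors, and without liver NT replicate 4 that of Xbp1 was 0.22 and that of Chac1 -0.22. Atf4 (0.04 ± 0.17) and Herpud1 (-0.11 ± 0.36) lay near 0.

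The other genes of the response, 119 in 7 lists by role, were described in the same fits. In kidney, 0 of the 117 tested passed by edgeR, 33 were higher and 9 lower in shFos at an unadjusted p under 0.05 (background 17.1% and 14.8%), and the median was 0.12 against 0.00 over all genes. DESeq2 called 22 of them higher and 1 lower, where it called 10.4% and 7.92% of all genes tested, and edgeR without shFos replicate 1 called 24 of 118 higher and 5 lower (background 12.5% and 15%). By role, 21 of 24 ER chaperones and folding enzymes had positive values (median 0.23), as had 7 of 9 sensors and activators (0.29), 11 of 16 degradation genes (0.17) and 18 of 23 translocation and secretion genes (0.10). Targets of the integrated stress response were split, 16 positive and 11 negative (median 0.05), the eIF2alpha kinases and phosphatases were 5 and 2 (0.07), and the ER stress apoptosis genes were 4 and 7 (-0.22). After the GC correction the apoptosis genes were 6 and 5, and their median turned to 0.02.

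Among the kidney list genes higher in shFos, the sensors led by p. Ern1, which encodes the kinase and RNase that splices Xbp1 mRNA, was 9.76 ± 0.783 CPM (SD, n = 4) in NT and 18.2 ± 2.64 CPM in shFos, with no overlap (log2 fold change 0.90 ± 0.14 SE, adjusted p = 0.0661 by edgeR and 1.26e-05 by DESeq2). In edgeR's fit of all 16 libraries, added for the lists after seeing the data, it was called (0.89 ± 0.18, adjusted p = 0.0233). So were 3 other genes of the wider lists, but the share of all genes called in that fit is not given. Creb3l2, a membrane-bound transcription factor of the Atf6 type, was 33.8 ± 4.09 and 53.6 ± 9.70 CPM (0.67 ± 0.14, adjusted p = 0.0661 by edgeR and 0.00235 by DESeq2). Atf6 was 63.9 ± 5.06 and 89.8 ± 12.0 CPM (0.49 ± 0.11, adjusted p = 0.0661 by edgeR and 0.00359 by DESeq2). In all 3 the ranges of the groups did not overlap, which is a description, since they were named for their small p. On the lower side were the prolyl isomerase Fkbp2 (-0.26 ± 0.09), the eIF2alpha phosphatase subunit Ppp1r15a (GADD34, -0.42 ± 0.15) and the stress cytokine Gdf15 (-0.46 ± 0.17), with edgeR adjusted p of 0.0961, 0.0961 and 0.101. After the GC correction the value of Fkbp2 was 0.03 and that of Gdf15 -0.18 (edgeR adjusted p = 0.545).

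In liver, 0 of the 114 list genes tested passed by edgeR or DESeq2, and 95 had negative values, with a median of -0.20 against -0.01 over all genes. At an unadjusted p under 0.05, 16 were lower and 1 higher in shFos (background 3.16% and 3.58%). Negative values were held by 22 of 24 chaperones and folding enzymes (median -0.37), 8 of 9 sensors and activators (-0.18), 14 of 16 degradation genes (-0.21) and 21 of 22 translocation and secretion genes (-0.23). They were also held by 19 of 25 integrated stress response targets (-0.13), 5 of 7 kinases and phosphatases (-0.07) and 6 of 11 apoptosis genes (-0.04). Without NT replicate 4, 98 of 115 values were still negative, the median was -0.13, and 10 were lower and 1 higher at an unadjusted p under 0.05, where 2.88% and 3.56% of all genes tested were. Ppp1r15a was 14.4 ± 1.10 CPM in NT and 10.9 ± 1.30 CPM in shFos (-0.41 ± 0.12 SE), the disulfide isomerase Pdia5 90.0 ± 10.8 and 68.6 ± 7.20 CPM (-0.39 ± 0.12) and the proapoptotic Bcl2l11 (Bim) 12.1 ± 1.75 and 7.79 ± 1.97 CPM (-0.63 ± 0.20), each at an edgeR adjusted p of 0.714. The highest on the other side were the cysteine-forming enzyme Cth (0.83 ± 0.35), the transcription factor Cebpb (0.42 ± 0.20) and the proapoptotic Bbc3 (Puma, 0.36 ± 0.25), with edgeR adjusted p of 0.731, 0.734 and 0.762.

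Liver NT replicate 4 held Derl3 and Fkbp11 far above the other liver libraries. Derl3, an ER-associated degradation factor, had 4.62, 1.15, 5.36 and 64.0 CPM in NT replicates 1 to 4 and 1.80, 1.67, 1.88 and 1.32 CPM in shFos, and Fkbp11, an ER prolyl isomerase, had 9.30, 10.5, 6.51 and 32.0 CPM in NT and 3.82, 4.45, 7.63 and 4.07 CPM in shFos. These 2 genes were named after their values were seen. NT replicate 4 was also the highest of the 8 liver libraries for Xbp1, Chac1 and, narrowly, Pdia4 (295 CPM against 294 CPM in NT replicate 1). For Hspa5, Atf4, Dnajb9 and Sdf2l1 the highest was NT replicate 1. This was narrow for Atf4 (154.9 CPM against 154.6 CPM in NT replicate 4) and Dnajb9 (113.6 against 112.6 CPM), and Sdf2l1 was 56.8 against 54.9 CPM. On the scale normalised over all 16 libraries, NT replicate 4 was the higher of these 2 libraries for Atf4 and Dnajb9. In NT replicate 4 the summed plasma cell markers were 3.28 CPM, against 8.83 to 33.4 CPM in the other liver libraries, and the summed liver markers 48920 CPM, against 116100 to 195400 CPM. The part of its cell makeup in these values was not tested.

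**Figure D5:**
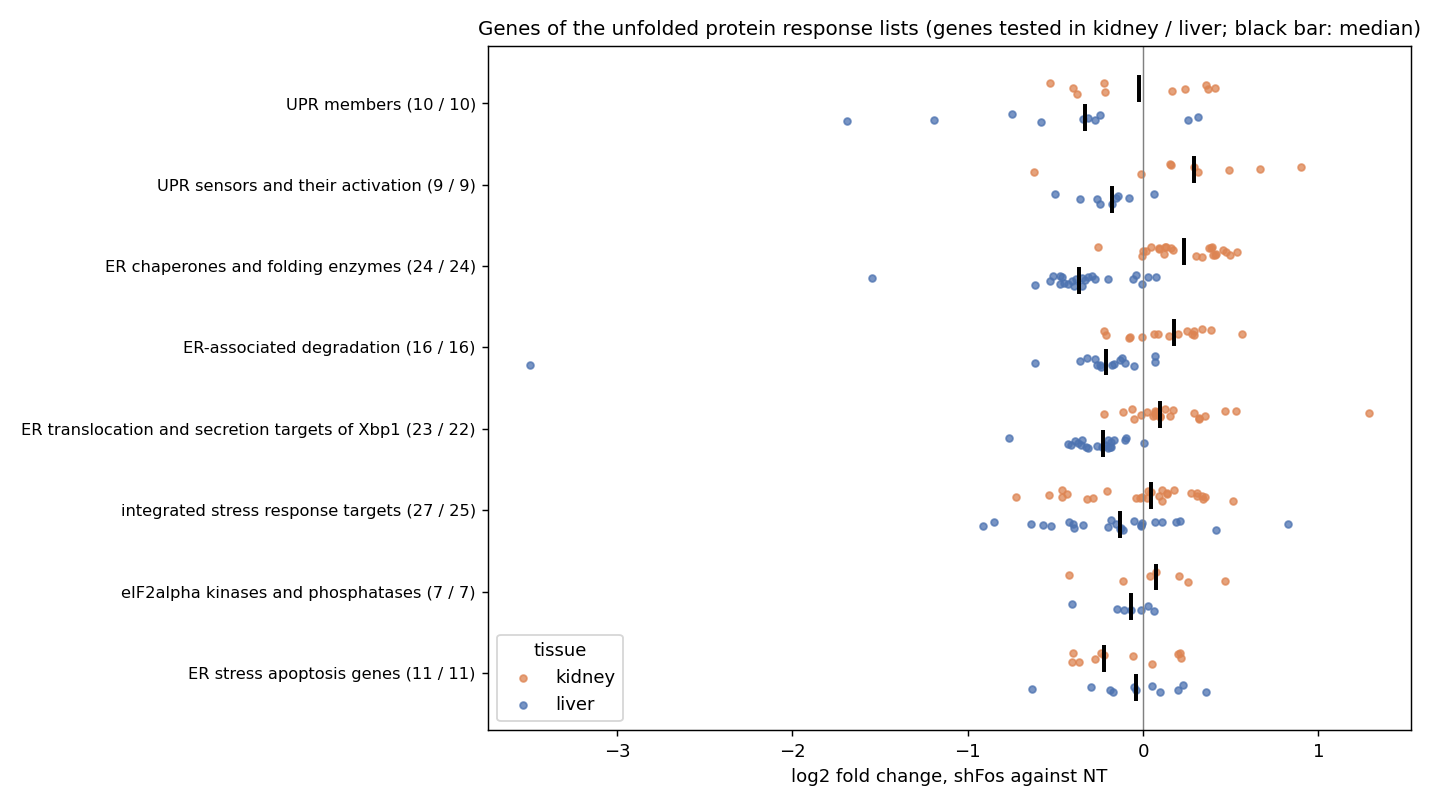
Each point is a gene of the UPR lists at its log2 fold change, shFos against NT (horizontal axis), in kidney (orange) and liver (blue), with black bars at the list medians. The chaperone list has medians of 0.23 in kidney and -0.37 in liver, and the far left points in liver are Derl3 (-3.49) and Fkbp11 (-1.55). The far right point is Srp54a in kidney (1.29, on 12 to 47 reads a library), named after its values were seen.

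Between tissues, 96 of the 119 list genes had a higher change in kidney than in liver, with a median difference of 0.34 against 0.00 over all genes. At an unadjusted p under 0.05, 37 lay on that side and 2 on the other (background 8.25% and 7.84%), and 0 passed by edgeR. DESeq2 called 9 of the 119, where it called 2.21% of all genes tested, and edgeR without kidney shFos replicate 1 called 18, where it called 7.99%. The chaperones and folding enzymes gave 23 of 24 differences above 0 (median 0.63), the degradation genes 15 of 16 (0.41) and the translocation and secretion genes 22 of 23 (0.30), against 5 of 11 for the apoptosis genes (-0.05). Without liver NT replicate 4, 91 of the 119 differences were above 0, with a median of 0.25.

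Other gene groups were set beside the same comparisons. None of their genes passed by edgeR (adjusted p under 0.05), and their part in the results above was not tested. Of 14 clock genes, 3 were higher and 8 lower in kidney shFos at an unadjusted p under 0.05 (background 17.1% and 14.8%), with a median of -0.71, and 0 were higher and 3 lower in liver (background 3.58% and 3.16%, median -0.17). Of 12 cytosolic heat shock genes, which respond to unfolded protein outside the ER, 6 were higher and 1 lower in kidney by the same measure (median 0.31), and 1 of 11 was higher in liver (median 0.19), where 11 of 11 values were positive while the ER chaperone values were mostly negative. Plasma cells, which have a large ER, were followed by 5 markers. These summed to 15.7 to 175 CPM in kidney NT and 195 to 309 CPM in kidney shFos, and to 3.28 to 17.5 CPM in liver NT and 16.3 to 33.4 CPM in liver shFos. The sums were higher in shFos without overlap in kidney and with overlap in liver, but the list did not share this. Of the 4 markers tested, 2 had positive and 2 negative values in each tissue, and the sum followed Jchain (named after its values were seen), at a mean of 92.9 CPM in NT and 217 CPM in shFos in kidney (edgeR adjusted p = 0.230) and of 6.12 and 22.1 CPM in liver (edgeR adjusted p = 0.714). The 8 macrophage and Kupffer cell markers summed to 230 to 608 CPM in kidney NT, 343 to 384 CPM in kidney shFos, 250 to 1350 CPM in liver NT and 307 to 565 CPM in liver shFos, and 8 of 8 had negative values in liver (median -0.72) and 5 of 6 tested in kidney (-0.21). The 7 B and T cell markers summed to 7.22 to 157 CPM in kidney NT, 18.6 to 30.8 CPM in kidney shFos, 2.75 to 57.3 CPM in liver NT and 10.2 to 23.6 CPM in liver shFos, and 7 of 7 had negative values in kidney (median -1.20) and 4 of 7 in liver (-0.12). Of the 7 kidney markers, 6 had positive values in kidney (median 0.45). At an unadjusted p under 0.05 were 2 of these 6, 1 B and T cell marker in kidney and 0 macrophage markers in either tissue. The 7 pancreatic acinar markers, checked because pancreas is rich in ER genes, summed to 0.750 CPM or less in every library, with Prss2, Cpa1, Pnlip and Amy2a5 at 0 counts in all. The 7 adrenal and fat markers summed to 23.0 to 89.4 CPM in 7 kidney libraries and to 329 CPM in kidney shFos replicate 2, which was also the highest library for Hspa5, Dnajb9, Sdf2l1 and Pdia4, and to 8.05 CPM or less in liver.

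The genes that varied most like 2 of the UPR genes were taken by the Pearson r of log2 CPM over the 8 libraries of a tissue, as a description. With Hspa5 in kidney these were Vav3 (0.98), Actg1 (0.97) and Ptchd4 (0.97), and in liver Dnajc2 (0.96), Creld2 (0.95) and Bms1 (0.94), of which Creld2 belongs to the wider UPR lists. With Trib3 they were Zmiz2 (0.94), Prmt1 (0.93) and Taf5 (0.93) in kidney and Hmgb2 (0.98), Tmtc2 (0.98) and Tns2 (0.97) in liver, none of them in the UPR lists.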

How the data were processed

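RNA-seq libraries of kidney and liver from AAV8-injected old mice were used (16, with 4 in every tissue and treatment group). Per the labels and the study's methods, the authors trimmed reads with Trimmomatic 0.39, aligned them to mm10 with HISAT2 2.2.1 and counted them per gene with HTSeq 0.12.4 without regard to strand. The deposited values are raw counts per gene symbol, and the 5 closing summary lines were not used as genes. GENCODE M21 matched 98.2% of symbols and supplied lengths and positions. Reads on no gene made up 13.4% to 26.7% of each library.

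Each tissue was fitted with edgeR 4.0.16 in R 4.3.3 (filterByExpr, TMM, robust quasi-likelihood test, Benjamini-Hochberg adjustment over all genes tested, calls under 0.05). The interaction and the tissue contrast used all 16 libraries. CPM were computed with TMM within each tissue, and log2 CPM with a prior count of 2. DESeq2 1.42.0, other scalings and filters, one fit of all libraries, edgeR's newer dispersion, a GC correction (lowess span 0.3), a replicate block and each library left out were alternatives. Library totals in place of TMM the blocked fit of the 8 NT libraries and the wider lists in one fit of all libraries were added after seeing the data. For a single gene, the difference of mean CPM was tested by exact permutation (two-sided, 70 assignments). The fit was tested on simulated data. The SE and SD given cover the spread between libraries. Floors cover counting error only: a count of 0 allows 3 counts, 0.164 to 0.211 CPM on library totals without TMM.

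Same-numbered NT kidneys and livers deviated together from their group means (correlation 0.12 to 0.40 over genes), so the blocked value is given for the tissue contrast where it changes a call. NT and shFos libraries of the same number did not (-0.26 to 0.12). The UPR genes and lists were chosen with earlier results of these data known. The genes named are the 10 UPR genes, Fos, the 3 higher and 3 lower genes with the smallest p among the wider lists in each tissue, and the 3 genes most like Hspa5 and Trib3, except where a later choice is stated. Promoter sequences came from RefSeq (GRCm38.p6), which matched all 10 genes.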

Additional observations from a re-analysis of the deposited data

Results flagged for a closer look

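Within the groups of 4 libraries, 3 values of the 10 UPR genes stood apart from their group by Dixon's test, among 40 groups tested, where chance alone gives about 2. Herpud1 was 329 CPM (5101 reads) in kidney NT replicate 4, against 184 to 198 CPM in the other kidney NT libraries. Sdf2l1 was 30.7 CPM (532 reads) in liver NT replicate 2, against 52.4 to 56.8 CPM in the others. Chac1 was 11.2 CPM (212 reads) in liver NT replicate 4, against 2.05 to 2.34 CPM. Both replicate 4 libraries were also the ones that differed most from the rest of their groups over all genes.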

How the results depend on the processing

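In kidney, the count of UPR genes called was 0 of 10 under every alternative run except without shFos replicate 1, where it was 3 (range 0 to 3 over the 8 libraries left out). The wider lists gave 0 calls in edgeR's fit of the 8 kidney libraries, 23 by DESeq2, 4 in edgeR's fit of all 16 libraries (added after seeing the data) and 0 to 29 with a kidney library left out. DESeq2 called 18.3% of all genes tested. The 29 came without shFos replicate 1, where 12.5% of all genes tested were called higher and 15% lower. No share of all genes is given for the fit of all 16 libraries, so its 4 calls have no background. In liver, no alternative gave a call among the 10 genes or the wider lists. For the interaction, 1 gene was called by DESeq2, which gave Trib3 and Chac1 no adjusted p, and 0 to 1 with a library left out. The tissue contrast gave 8 to 9 calls with a library left out.

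Some directions turned. With a library left out, liver Ddit3 ranged from -0.092 to 0.47, interaction Atf4 from -0.011 to 0.13, interaction Herpud1 from -0.33 to 0.17 and interaction Chac1 from -0.22 to 1.14. Kidney Fkbp2 was 0.033 under the GC correction and 0.032 with the replicate block added. Interaction Atf4 was -0.00198 under upper-quartile scaling and -0.057 under library totals, and interaction Herpud1 was 0.011 under the GC correction and 0.020 with the block added. In the tissue contrast, Ddit3 was -0.013 under the GC correction and -0.00847 with the block added, and Atf4 (0.0090) and Herpud1 (0.14) turned under library totals. The causes were not tested. The replicate block changed no other call of the UPR genes than that of Chac1 between tissues (-1.14, edgeR adjusted p = 0.0565 over 16 libraries). Over 16 libraries this block joined NT and shFos libraries of the same number, so it did not model pairs of kidney and liver within a treatment. Trib3 and Chac1 rest on 12 to 212 reads a library, which limits their precision.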
